A study of Mus musculus with 19 samples.

Results

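The 37 genes described here mark T lymphocytes and natural killer (NK) cells: components and partners of the T cell receptor, cytokine receptors, lineage transcription factors, cytotoxic effectors and NK receptors. They were chosen by gene symbol, and all 37 were found among the 26796 genes of the table. RNA was sequenced from 19 whole Met1 tumours, a transplantable mouse mammary tumour line, grown in mice dosed with extracellular vesicles that neutrophils had released. In 10 tumours the neutrophils had been treated with 27-hydroxycholesterol (27HC), a cholesterol metabolite, and in 9 with its vehicle, DMSO. All mice bore Met1 tumours and all received neutrophil vesicles, so no tumour without vesicles was analysed here. The strain, age and number of the mice, the vesicle dose and the time of harvest were not stated in the labels used here, and the labels do not say that each tumour came from a separate mouse. The p-values below therefore measure the spread between these samples, which may in part be technical.

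T cells recognise antigen through a receptor whose variable chains pair with the invariant CD3 chains, and the coreceptors CD4 and CD8 divide them broadly into helper and cytotoxic cells. Engagement of the receptor activates the kinases LCK and ZAP-70 and the adaptor LAT. Cytotoxic T cells and NK cells kill by releasing perforin and granzymes and make interferon gamma, under the control of the T-box factors T-bet and EOMES, while regulatory T cells depend on FOXP3. In mammary tumours, cytotoxic T cells and NK cells can restrain growth and regulatory T cells can blunt that restraint.

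The promoters of 6 members are shown as examples from the co-variation described further on. They are those of the CD3 chains, the coreceptor gene Cd8a and the effectors granzyme B (Gzmb) and perforin (Prf1). Other members, among them Tbx21 and Cd6, followed Cd3e more closely than these did. Each sequence runs from 250 bases before to 50 bases after the annotated start (RefSeq, GRCm38.p6), 5′ to 3′ on the strand of the gene. Capitals mark AGGAA, the core of ETS factor motifs, TGTGGT, the core of RUNX motifs, and TCACACC, a T-box sequence, each on either strand, and adjoining or overlapping copies run together. The windows lie at chr9:45009562-45009861 (Cd3e, minus strand), chr9:44981536-44981835 (Cd3d, plus), chr9:44980382-44980681 (Cd3g, minus), chr6:71373177-71373476 (Cd8a, plus), chr14:56262285-56262584 (Gzmb, minus) and chr10:61297586-61297885 (Prf1, plus).
Cd3e: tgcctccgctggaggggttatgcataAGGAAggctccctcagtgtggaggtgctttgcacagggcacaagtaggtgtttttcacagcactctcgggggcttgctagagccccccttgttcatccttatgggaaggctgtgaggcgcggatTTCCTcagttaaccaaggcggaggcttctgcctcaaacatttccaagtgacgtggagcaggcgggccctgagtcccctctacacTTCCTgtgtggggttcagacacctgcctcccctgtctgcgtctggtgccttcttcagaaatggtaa
Cd3d: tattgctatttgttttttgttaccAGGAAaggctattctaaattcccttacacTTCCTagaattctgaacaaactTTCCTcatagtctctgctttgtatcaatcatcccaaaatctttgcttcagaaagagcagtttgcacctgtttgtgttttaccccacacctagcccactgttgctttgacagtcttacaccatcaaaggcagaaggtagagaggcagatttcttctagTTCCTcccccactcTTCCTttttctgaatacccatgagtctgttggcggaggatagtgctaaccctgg
Cd3g: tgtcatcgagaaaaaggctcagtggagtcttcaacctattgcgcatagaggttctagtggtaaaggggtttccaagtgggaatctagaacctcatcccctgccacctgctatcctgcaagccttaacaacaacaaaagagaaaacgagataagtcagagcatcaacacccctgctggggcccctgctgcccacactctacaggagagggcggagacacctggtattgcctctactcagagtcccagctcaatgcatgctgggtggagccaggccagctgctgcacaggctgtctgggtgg
Cd8a: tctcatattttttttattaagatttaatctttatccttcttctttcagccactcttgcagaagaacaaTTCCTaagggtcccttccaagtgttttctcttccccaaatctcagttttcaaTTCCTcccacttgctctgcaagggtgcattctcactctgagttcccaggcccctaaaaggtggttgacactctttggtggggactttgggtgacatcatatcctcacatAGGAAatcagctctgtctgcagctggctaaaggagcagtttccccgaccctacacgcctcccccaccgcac
Gzmb: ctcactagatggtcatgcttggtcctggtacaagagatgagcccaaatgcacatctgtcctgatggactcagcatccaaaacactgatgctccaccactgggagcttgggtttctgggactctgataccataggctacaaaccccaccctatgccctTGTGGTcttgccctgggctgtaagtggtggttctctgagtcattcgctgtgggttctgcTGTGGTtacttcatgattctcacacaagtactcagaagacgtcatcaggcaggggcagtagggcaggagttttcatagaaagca
Prf1: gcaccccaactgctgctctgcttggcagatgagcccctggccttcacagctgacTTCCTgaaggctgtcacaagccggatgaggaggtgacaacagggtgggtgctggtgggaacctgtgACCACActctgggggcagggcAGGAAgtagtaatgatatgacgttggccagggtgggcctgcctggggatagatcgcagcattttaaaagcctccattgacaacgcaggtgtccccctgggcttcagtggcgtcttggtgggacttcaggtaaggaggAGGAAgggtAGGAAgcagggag
RefSeq windows were matched for 24 of the 37 members, 29 windows in all, some of them alternative starts of the same gene. AGGAA stood in 22 of the 29 windows (75.9%), against 66.7% of all 32851 promoter windows. TGTGGT stood in 11 of 29 (37.9%), against 16.8% of all windows, and TCACACC in 2 of 29 (6.90%), against 3.98%. In the printed set, AGGAA occurs in the windows of Cd3e, Cd3d, Cd8a and Prf1, and TGTGGT in those of Gzmb and Prf1. A match is a description of the letters and not evidence of binding, and the windows of neighbouring or alternative starts are not independent. Several members are neighbours: Cd3d and Cd3g are separated by 1354 bases, Cd3e and Cd3d by 11.4 kb, Cd8a and Cd8b1 by 35.9 kb on chromosome 6, and the NK receptor genes Klrd1 and Klrk1 by 11.5 kb, also on chromosome 6.

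Totals ranged from 28139300 to 41179069 rounded expected counts per tumour. In 5 libraries (27HC replicates 1_3, 1_5 and 2_3 and DMSO replicates 1_5 and 2_3) the mean transcript GC content, weighted by counts, was 49.0% to 49.3%, against 50.6% to 52.3% in the other 14, and these are called the low-GC libraries. Many members had other levels in them, as described below, so the comparisons of members between treatments are given over all 19 tumours and over the 14 others (7 with 27HC and 7 with DMSO). Summed levels of 5 epithelial markers were 44.7 to 137 CPM (counts scaled to a common, TMM-normalised library size) in 27HC tumours and 62.2 to 142 CPM in DMSO tumours, and most of this sum came from Krt18, which averaged 84.3 CPM with 27HC and 86.5 CPM with DMSO. Krt8, Krt19, Cdh1 and Epcam averaged 2.36 to 7.76 CPM in either group.

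Apart from Gzmk, which had 0 CPM in some tumours, the members had counts in every tumour, mostly at low to moderate level. Their summed level was 137 to 383 CPM in 27HC tumours, with a median of 182 CPM, and 153 to 438 CPM in DMSO tumours, with a median of 267 CPM. Per kilobase of transcript, the highest members over the 19 tumours were Il2rb, which encodes the beta chain of the receptors for interleukins 2 and 15, at 10.4 ± 3.63 CPM per kb (SD, n = 19), and the granule gene Nkg7, at 10.4 ± 4.65 CPM per kb. Gzmb followed at 8.98 ± 5.70 CPM per kb, and the T cell receptor constant genes Trac and Trbc2 at 8.62 ± 3.95 and 7.52 ± 3.11 CPM per kb. These 5 levels lie within each other's spread. The lowest were the granzyme gene Gzmk, at 0.0245 ± 0.0301 CPM per kb, and Sh2d1a, which encodes the adaptor SAP, at 0.0957 ± 0.0622 CPM per kb. Gzmk had at most 4.60 and Sh2d1a at most 27.1 expected counts in any library. Neither passed the filter on low counts, so the tests cover 35 members.

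No member passed the test between 27HC and DMSO tumours. edgeR's quasi-likelihood test called 0 of the 35 tested members at an adjusted p under 0.05, against 0% of all 15629 tested genes, and limma-voom also called 0 members. At an unadjusted p under 0.05 there were 0 members in edgeR's test, against 2.27% of all genes, and DESeq2 called 2 genes, neither of them a member. The smallest unadjusted p of a member was 0.0922, and every edgeR adjusted p was 1.00. The log2 fold change, 27HC over DMSO, was below 0 for 29 of the 35 members and for 46.1% of all tested genes, with a median of -0.19 for the members and 0.01 for all genes. The values of the groups overlapped for all 37 members, which is a description only, as the overlap was not counted over all genes. The 95% interval lay within a 2-fold difference in either direction for 23 of the 35. Of all 15629 tested genes it did so for 13486, a larger share. In whole tumours, fewer cells of a type and less RNA per cell cannot be told apart.

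**Figure D1:**
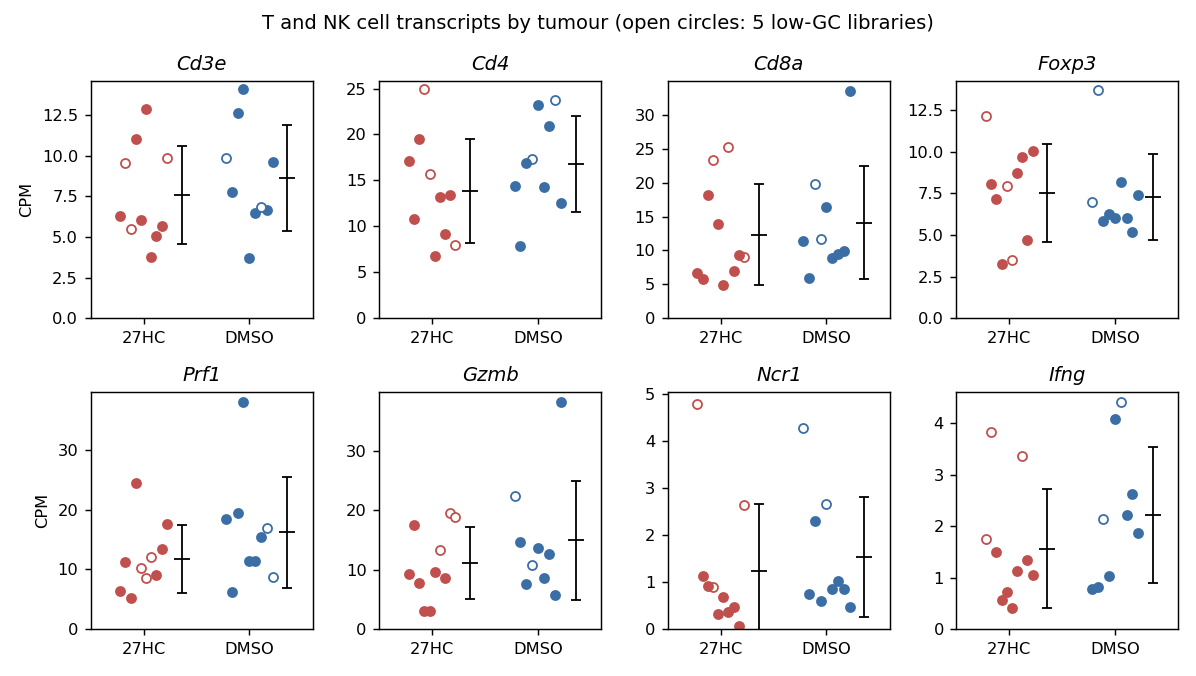
Levels of 8 members in CPM (vertical axis, from 0) in each of 10 27HC tumours (left, red) and 9 DMSO tumours (right, blue), with the mean and SD beside each group. Open circles are the 5 low-GC libraries. The groups overlap for every gene, and DMSO replicate 2_4 is the highest tumour for Cd8a (33.6 CPM), Prf1 (38.1 CPM) and Gzmb (38.2 CPM).

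Among the receptor genes, 6 of 7 had a log2 fold change below 0, with a median of -0.27. That median was -0.10 without DMSO replicate 2_4, with 5 of 7 below 0, and -0.15 without DMSO replicate 1_5. It was -0.16 to -0.17 on leaving out 27HC replicate 1_1, 1_2 or 2_1, and -0.43 and -0.44 on leaving out 27HC replicates 1_3 and 2_3. Cd3e (ENSMUSG00000032093, GRCm38 chr9:44998740-45009627), which encodes the CD3 epsilon chain, had 3.77, 6.18 and 12.9 CPM as lowest, median and highest in 27HC tumours and 3.74, 7.76 and 14.1 CPM in DMSO tumours. The ranges nearly coincide, with 27HC replicate 2_4 and DMSO replicate 1_3 at the top. The mean was 7.57 ± 3.02 CPM with 27HC (SD, n = 10) and 8.63 ± 3.25 CPM with DMSO (SD, n = 9), and the log2 fold change was -0.19 (SE 0.25, edgeR adjusted p = 1.00). Cd247 (chr1:165788681-165877277), which encodes the signalling zeta chain, was the member with the smallest unadjusted p. It had 2.68, 3.32 and 7.2 CPM as lowest, median and highest in 27HC tumours and 3.26, 5.84 and 8.88 CPM in DMSO tumours. Only 2 of 10 27HC tumours exceeded the DMSO median, and the ranges still overlapped over most of their length. Its log2 fold change was -0.42 (SE 0.24, 95% interval -0.91 to 0.07, unadjusted p = 0.0922, edgeR adjusted p = 1.00). The constant genes Trac and Trbc2 had -0.31 and -0.30, and Trac had -0.14 without DMSO replicate 2_4. Trbc1 and Trbc2 are near copies, and their shared reads were divided by the quantification model, so their separate levels are uncertain.

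The coreceptors, which mark helper and cytotoxic cells, all had a log2 fold change below 0 over the 19 tumours. Cd4 (chr6:124864692-124888221) had 6.72, 13.3 and 24.9 CPM as lowest, median and highest in 27HC tumours and 7.87, 16.8 and 23.8 CPM in DMSO tumours. The mean was 13.8 ± 5.64 CPM in 27HC tumours (SD, n = 10) and 16.8 ± 5.22 CPM in DMSO tumours (SD, n = 9), and the log2 fold change was -0.28 (SE 0.24). The lowest DMSO tumour for Cd4, replicate 1_3, was the highest of all 19 for Cd3e. Cd8a (chr6:71373427-71379173), which encodes the CD8 alpha chain, had 4.91, 9.16 and 25.2 CPM as lowest, median and highest with 27HC and 6.01, 11.3 and 33.6 CPM with DMSO. Most tumours of both groups lay below 20 CPM, and the 3 above it were 27HC replicates 1_3 and 2_3, both low-GC libraries, and DMSO replicate 2_4. The log2 fold changes of Cd8a and of Cd8b1, which encodes the beta chain, were -0.19 (SE 0.35) and -0.20 (SE 0.27). Without DMSO replicate 2_4 they were 0.08 and 0.02, so their direction rests on that tumour.

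The surface and signalling members stayed closer to 0. For the 6 adhesion and costimulation genes the log2 fold changes ran from -0.22 to 0.14 with a median of -0.13, which moved between -0.35 without 27HC replicate 2_3 and -0.05 without DMSO replicate 2_3. They include Cd5 and Cd6, inhibitory scavenger receptors, at -0.22 (SE 0.22) and -0.12 (SE 0.22), and the costimulatory receptors Cd28 and Icos, at 0.14 (SE 0.40) and -0.13 (SE 0.46). The standard errors of Cd28 and Icos are larger, and both genes were high in low-GC libraries. The 4 tested signalling genes, Lck, Zap70, Lat and the adaptor gene Skap1, ran from -0.21 to -0.08. Lck, at 13.6 CPM as the median of 27HC tumours and 14.7 CPM as that of DMSO tumours, had a 95% interval of -0.52 to 0.31.

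Among cytokine receptors, Il7r, the receptor for the survival factor interleukin 7, had the highest fold change of any member. Il7r (chr15:9505788-9530176) had 2.27, 3.96 and 13.9 CPM as lowest, median and highest in 27HC tumours and 0.938, 3.67 and 11.5 CPM in DMSO tumours. The medians are close, and the highest tumour of each group is a low-GC library (replicate 2_3 in both). Il7r averaged 5.71 ± 4.33 CPM in 27HC tumours (SD, n = 10) and 4.73 ± 3.40 CPM in DMSO tumours (SD, n = 9), and the log2 fold change was 0.27 (SE 0.44, adjusted p = 1.00 in edgeR's test). Foxp3 (chrX:7573644-7595245), the regulatory T cell factor, had 3.28, 8.0 and 12.2 CPM as lowest, median and highest with 27HC and 5.19, 6.26 and 13.7 CPM with DMSO. Its 27HC values were spread more widely than 8 of the 9 DMSO values, which lay between 5.19 and 8.16 CPM. The log2 fold change was 0.05 (SE 0.24, 95% interval -0.45 to 0.55), and those of the T-box genes Tbx21 and Eomes were -0.14 (SE 0.24) and -0.21 (SE 0.40).

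The cytotoxic effectors had the lowest median of the roles over 19 tumours, -0.42, with 5 of 6 tested genes below 0. Without DMSO replicate 2_4 that median was -0.16, and Nkg7 had -0.03 in place of -0.24. Prf1 (chr10:61297833-61304680), encoding the pore-forming perforin, had 5.13, 10.7 and 24.4 CPM as lowest, median and highest in 27HC tumours and 6.27, 15.5 and 38.1 CPM in DMSO tumours. Of the 10 27HC tumours, 2 exceeded the median of the DMSO tumours. Prf1 averaged 11.8 ± 5.68 CPM in 27HC tumours (SD, n = 10) and 16.2 ± 9.34 CPM in DMSO tumours (SD, n = 9), and its log2 fold change was -0.46 (SE 0.31, unadjusted p = 0.145, edgeR adjusted p = 1.00). Without DMSO replicate 2_4, at 38.1 CPM, it was -0.20. Gzmb (chr14:56258838-56262260) had 3.06, 9.44 and 19.6 CPM as lowest, median and highest with 27HC and 5.67, 12.7 and 38.2 CPM with DMSO. DMSO replicate 2_4 was again the highest, and all other tumours of both groups lay below 23 CPM. The log2 fold change was -0.43 (SE 0.37), and -0.12 without that tumour. Ifng (chr10:118441046-118445892), encoding interferon gamma, had the lowest fold change of any member. It had 0.406, 1.24 and 3.83 CPM as lowest, median and highest in 27HC tumours and 0.777, 2.14 and 4.42 CPM in DMSO tumours. In 2 of 10 27HC tumours, both low-GC libraries, it exceeded the DMSO median. The log2 fold change was -0.50 (SE 0.42, unadjusted p = 0.243, edgeR adjusted p = 1.00), and leaving out 1 tumour moved it between -0.77 and -0.30.

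The NK receptors were the least precisely measured. Ncr1 (chr7:4337724-4345164), which encodes the NK receptor NKp46, had 0.0686, 0.792 and 4.79 CPM as lowest, median and highest in 27HC tumours and 0.472, 0.858 and 4.28 CPM in DMSO tumours. These levels rest on 2.02 to 202 expected counts per library. The highest tumour of each group was a low-GC library, and the log2 fold change was -0.31 (SE 0.58). Klrk1, encoding the activating receptor NKG2D, had -0.20 (SE 0.48) and Klrd1, encoding CD94, 0.15 (SE 0.65). For none of the 3 did the 95% interval fall within a 2-fold difference.

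Without the 5 low-GC libraries the members again passed no test, and more of them lay below 0. edgeR's quasi-likelihood test over 14 tumours called 0 of 35 members and 0% of 15260 genes, with a smallest adjusted p of 0.787 over all genes. The log2 fold change was below 0 for 33 of 35 members, the exceptions being Foxp3 at 0.20 and Il7r at 0.20, and for 50.4% of all genes. The median was -0.40 for the members and 0.00 for all genes. At an unadjusted p under 0.05 there were 3 members, all lower with 27HC. Of all genes 6.01% reached that level and 3.06% were lower. Ifng averaged 0.955 ± 0.406 CPM with 27HC and 1.92 ± 1.20 CPM with DMSO in these tumours (SD, n = 7 each), and its log2 fold change was -1.0 (SE 0.40, unadjusted p = 0.0213, edgeR adjusted p = 0.787). Klrk1 averaged 3.70 ± 1.29 CPM with 27HC and 5.95 ± 2.83 CPM with DMSO, a change of -0.68 (SE 0.28, unadjusted p = 0.0283 from edgeR's model across all genes). Eomes averaged 1.09 ± 0.180 CPM with 27HC and 1.55 ± 0.505 CPM with DMSO, a change of -0.50 (SE 0.23, unadjusted p = 0.0481 from the same model). The edgeR adjusted p of both was 0.787. By role, the medians were -0.50 for the receptor complex, -0.46 for coreceptors and -0.58 for cytotoxic effectors. They were -0.68 for NK receptors and -0.12 for the signalling genes. DMSO replicate 2_4, the tumour with the highest summed level, is among these 14. No fit left out both it and the low-GC libraries, so how far these medians rest on it was not tested. In the fit over 19 tumours, leaving out that tumour gave -0.10 for the receptor complex and 0.02 for coreceptors. It gave -0.16 for cytotoxic effectors and -0.14 for NK receptors. A correction of each library for GC content, fitted to all 19 tumours, gave a median of -0.20 for the members. Then 31 of 35 members lay below 0, against 48.0% of all tested genes. No member had an unadjusted p under 0.05 in edgeR's test with this correction, against 492 of 15629 genes.

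**Figure D2:**
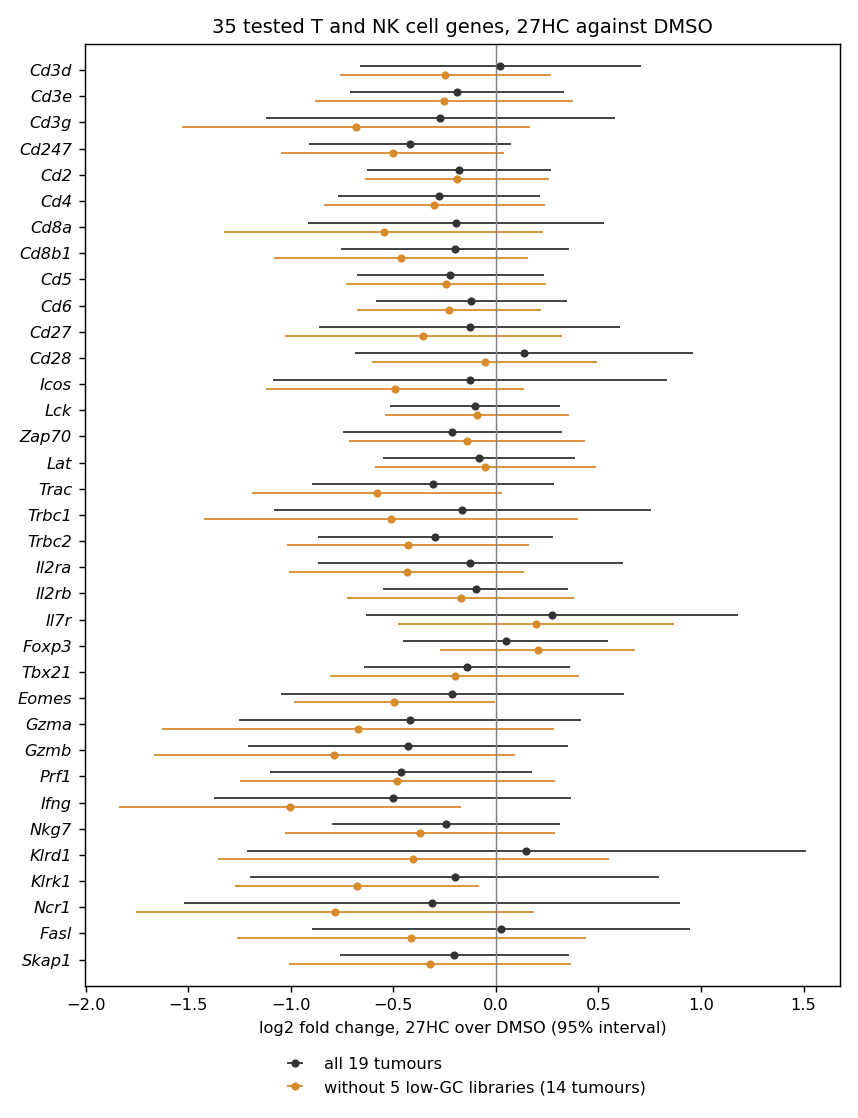
Log2 fold change of 27HC over DMSO tumours (horizontal axis, with 95% intervals) for the 35 tested members, over all 19 tumours (black) and over the 14 tumours that remain without the low-GC libraries (orange). Of the members, 29 lie below 0 over 19 tumours and 33 over 14, and only Ifng, Klrk1 and Eomes have an interval that does not reach 0, over 14 tumours, before adjustment.

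Single tumours moved the median of the members by more than 1.5 times. It was -0.10 without DMSO replicate 2_4, which had the highest summed level, 438 CPM. It was -0.12 without 27HC replicate 1_2 and also without 27HC replicate 2_1, -0.32 without 27HC replicate 1_3, and it reached -0.36 when 27HC replicate 2_3 was left out. The number below 0 then ranged from 25 to 35 of 35. Each tumour title carries a first number, 1 or 2, whose meaning is not given. Within number 1 the median was -0.18 and within number 2 it was -0.20. Whether the 27HC difference depends on this number was tested as an interaction, which called 0 of 35 members and 0% of 15629 genes (edgeR, smallest adjusted p 0.911 over all genes). No member reached an unadjusted p under 0.05 in that test, against 223 of all genes.

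The low-GC libraries held more of some members and not of others. Relative to the other 14 tumours, mean CPM was 5.88 times as high for Klrd1, 3.97 for Ncr1, 3.73 for Klrk1, 3.37 for Icos and 3.19 for Il7r. The ratio was 1.05 for Cd3e, 0.763 for Prf1 and 0.653 for Zap70. Members of the same receptor complex, Cd3e and Cd3d (ratio 2.36), thus differed in these libraries. Across the 37 members the log2 ratio and the GC content of the longest transcript had a Pearson r of -0.72 (Spearman's rho -0.72), and across 15406 tested genes r was -0.68 (rho -0.71). These correlations are across genes, which share the same 19 libraries and are not independent. The 5 libraries were set apart by this same transcript GC content, so the grouping itself builds in a fall of the ratio with GC over all genes. This relation and the medians by GC class that follow describe that grouping and are no separate finding. The median ratio was 2.46 for the 15 members of under 46% GC, 1.47 for the 10 between 46% and 52%, and 0.913 for the 12 of 52% or more. For 9 tested members (Cd3d, Cd28, Icos, Il2ra, Il7r, Eomes, Klrd1, Klrk1 and Ncr1) at least 4 of the 5 low-GC libraries lay above all other 14 tumours. Among all tested genes 21.9% did so. In each of the 9 members the low-GC library that did not was 27HC replicate 1_5, with 2.37 CPM of Klrd1 against 4.11 CPM in DMSO replicate 2_4. The summed level of the 37 members was 175 CPM in 27HC replicate 1_5 and 306 to 383 CPM in the other 4 low-GC libraries. The summed level of 5 lymph node stroma markers was 15.0 to 81.7 CPM in the low-GC libraries and 2.30 to 13.8 CPM in the other 14, with no marker at 0 in all tumours. In the low-GC libraries Ccl21a averaged 19.4 CPM and Cxcl13 21.9 CPM, against 1.92 and 2.86 CPM in the other 14, and this pair carried the sum. Glycam1, Ccl19 and Madcam1 averaged 0.459, 0.364 and 0.0759 CPM in the low-GC libraries, against 0.416, 0.476 and 0.211 CPM in the other 14, so the 5 markers did not move together. The summed level of 8 B cell markers was 8.07 to 31.4 CPM in the low-GC libraries and 9.12 to 36.6 CPM in the other 14. That of 5 epithelial markers was 44.7 to 100 CPM in the low-GC libraries and 77.8 to 142 CPM in the other 14. The median summed level of skeletal muscle markers was 457 CPM in the low-GC libraries and 27.6 CPM in the other 14, that of dendritic cell markers 132 CPM against 84.8 CPM in the other 14, and that of mast cell and basophil markers 166 CPM against 319 CPM in the other 14. The part of either GC content or these other cell types in the levels of the members was not tested.

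**Figure D3:**
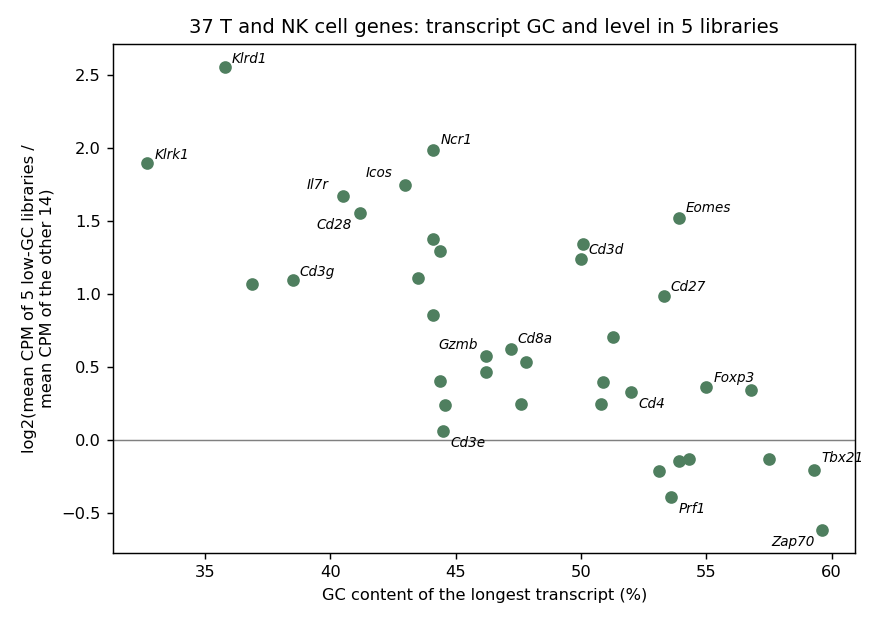
Each point is 1 of the 37 members, placed by the GC content of its longest transcript (horizontal axis, %) and by the log2 ratio of its mean CPM in the 5 low-GC libraries to that in the other 14 (vertical axis). The ratio falls with GC content (r = -0.72), from Klrd1 and Klrk1 at the upper left to Zap70 at the lower right, while Cd3e, at 44.5% GC, lies near 0. The libraries were grouped by this same GC content, so a fall over all genes is built in.

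The make-up of the T and NK transcripts was compared through 6 log2 ratios between members in each tumour. These ratios depend less on the total amount of the transcripts. None passed an exact permutation test (two-sided, all 92378 ways of dividing the tumours), with an adjusted p of 0.832 for each over the 6 ratios. The ratio of Cd8a to Cd4 averaged -0.27 ± 0.52 in 27HC tumours (SD, n = 10) and -0.34 ± 0.61 in DMSO tumours (SD, n = 9), a difference of 0.07 (SE 0.26, exact permutation p = 0.777). That of Foxp3 to Cd3e averaged -0.02 ± 0.41 with 27HC and -0.20 ± 0.69 with DMSO, a difference of 0.18 (SE 0.26, exact permutation p = 0.496), and 7 of 10 27HC tumours exceeded the DMSO median. The ratio of Prf1 to Cd3e averaged 0.57 ± 0.62 with 27HC and 0.79 ± 0.38 with DMSO, a difference of -0.22 (SE 0.23, exact permutation p = 0.379). For Ncr1 to Cd3e the difference was -0.17 (SE 0.37). Ncr1 had medians of 0.792 CPM with 27HC and 0.858 CPM with DMSO, and 0.5 CPM was added to both terms. The ratio of Ncr1 to Cd3e is thus not free of amount. It averaged -1.42 in the low-GC libraries and -2.73 in the other 14. In the 14 tumours without the low-GC libraries the difference was -0.16 for Cd8a to Cd4 and 0.37 for Foxp3 to Cd3e, with exact permutation p = 0.567 and 0.209. Adjusted p-values over the 6 ratios then ran from 0.680 to 0.937. DMSO replicate 1_3 had the lowest ratio of Cd4 to Cd3e, at -0.80, while the other 18 tumours were all above 0.

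**Figure D4:**
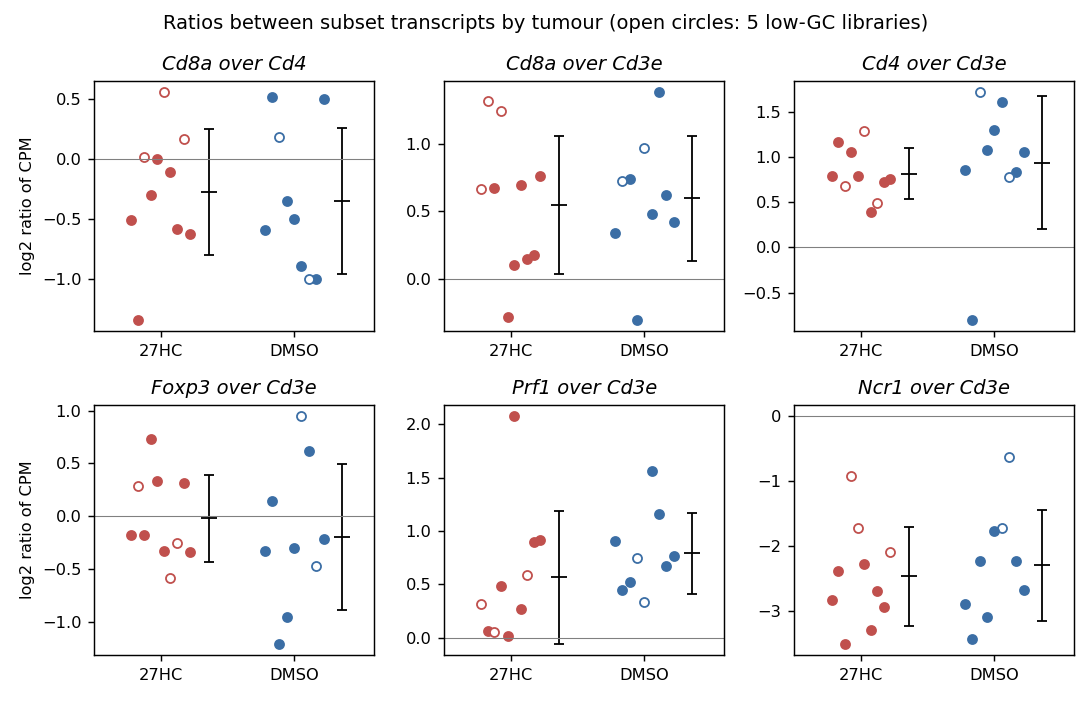
Log2 ratios between CPM of 2 members (vertical axes) in each of 10 27HC tumours (left, red) and 9 DMSO tumours (right, blue), with the mean and SD beside each group. Open circles are the low-GC libraries. The groups overlap in all 6 panels, and DMSO replicate 1_3 stands apart below 0 in the panel of Cd4 over Cd3e.

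Most members co-varied across tumours. Because the low-GC libraries form a cluster of their own, correlations were computed over the other 14 tumours, on log2 CPM. Of the 34 tested members other than Cd3e, 26 (76.5%) had a Pearson r with Cd3e of at least 0.5, with a median of 0.68, against 828 of 15628 tested genes (5.30%) with a median of -0.03. The highest were Tbx21 (0.91) and Cd6 (0.90) and the lowest Il7r (0.10), Cd28 (0.20), Fasl (0.26) and Icos (0.29). Of the 595 member pairs, 403 had an r of at least 0.5 and 16 an r below 0. The closest pair was Gzmb with Prf1, at 0.95. By role the receptor genes were the tightest group, with a median r of 0.81 among themselves, and the cytokine receptors the loosest, at -0.01. All these values share the same 14 libraries and describe them only.

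Of 10 pairs chosen to follow subsets, the cytotoxic ones were the closest. Cd8a and Cd8b1 had a Pearson r of 0.90 (permutation p = 7.0e-05, adjusted p = 0.00055, n = 14) and a Spearman's rho of 0.86 (permutation p = 2.0e-04, adjusted p = 0.0010). For Cd8a and Gzmb the r was 0.86 (permutation p = 1.1e-04, adjusted p = 0.00055) and rho 0.84 (permutation p = 4.2e-04, adjusted p = 0.0014). Within 27HC tumours r was 0.76 and within DMSO tumours 0.93 (n = 7 each), and 0.61 and 0.98 within first numbers 1 and 2. Gzmb thus tracked Cd8a in both groups, and r was also 0.86 when the 2 tumours farthest in Cd8a were left out. Cd3e followed Cd8a with r of 0.79 (permutation p = 5.7e-04, adjusted p = 0.0019), rho of 0.85 (permutation p = 1.7e-04, adjusted p = 0.0010) and 0.87 without the 2 farthest tumours. Cd3e and Prf1 had an r of 0.68 (permutation p = 0.00697, adjusted p = 0.0174) and a rho of 0.77 (permutation p = 0.00201, adjusted p = 0.00402). That r was 0.44 within 27HC tumours and 0.88 within DMSO tumours, a difference that was not tested, and 0.38 and 0.92 within first numbers 1 and 2. Without the 2 farthest tumours it was 0.61, and without DMSO replicate 2_4 it was 0.62 and no longer passed (adjusted permutation p = 0.0586).

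The helper and regulatory pairs did not pass. Cd3e and Cd4 had an r of 0.49 (permutation p = 0.0752, adjusted p = 0.0939) and a rho of 0.55 (permutation p = 0.0428, adjusted p = 0.0534). Within 27HC tumours r was 0.91 and within DMSO tumours, which include replicate 1_3, it was 0.02. Without that tumour the r over 13 tumours was 0.83 (adjusted permutation p = 9.2e-04), so the pooled value rests on it. Within first numbers 1 and 2 it was 0.44 and 0.76. Cd4 and Foxp3 had an r of 0.47 (permutation p = 0.0948, adjusted p = 0.0986) and a rho of 0.44 (permutation p = 0.114, adjusted p = 0.127), and r was 0.04 without the 2 tumours farthest in Cd4. Within treatments it was 0.68 with 27HC and 0.35 with DMSO, and within first numbers 0.71 and -0.02. Without 27HC replicate 1_1 this pair passed, with an r of 0.59 (adjusted permutation p = 0.0470). Cd3e and Foxp3 had an r of 0.46 (permutation p = 0.0986, adjusted p = 0.0986) and a rho of 0.35 (permutation p = 0.224, adjusted p = 0.224). Within 27HC tumours that r was 0.74 and within DMSO tumours 0.11, and within first numbers 0.47 and 0.45. Without the 2 farthest tumours it was 0.48, and without DMSO replicate 1_3 alone it was 0.57 and passed (adjusted permutation p = 0.0499).

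The NK and interferon pairs were intermediate. Ncr1 and Gzma, which encodes granzyme A, had a rho of 0.78 (permutation p = 0.00185, adjusted p = 0.00402) and an r of 0.56 (permutation p = 0.0462, adjusted p = 0.0660). Leaving out the 2 tumours farthest in Ncr1 (27HC replicate 1_1 and DMSO replicate 2_4) gave an r of 0.83, and leaving out 27HC replicate 1_1 alone gave 0.85, which passed (adjusted permutation p = 5.0e-04). Within 27HC tumours r was 0.27, within DMSO tumours 0.93, and within first numbers 0.41 and 0.83. Tbx21 and its known target Ifng had an r of 0.63 (permutation p = 0.0158, adjusted p = 0.0315) and a rho of 0.69 (permutation p = 0.00842, adjusted p = 0.0140), with 0.62 within 27HC and 0.64 within DMSO tumours. Within first numbers r was 0.71 and 0.57, and it was 0.69 without the 2 farthest tumours. Leaving out any of DMSO replicates 1_2 and 2_4 or 27HC replicates 1_1 and 2_1 ended this call, with r from 0.53 to 0.61 and an adjusted permutation p of 0.0566 to 0.0912. Cd3e and Ncr1 had an r of 0.57 (permutation p = 0.0285, adjusted p = 0.0476) and a rho of 0.60 (permutation p = 0.0271, adjusted p = 0.0387), with an r of 0.63 within 27HC tumours and 0.46 within DMSO tumours. Within first numbers r was 0.68 and 0.52, and it was 0.63 without the 2 farthest tumours. This call was lost on leaving out any of DMSO replicates 1_2, 1_4, 2_2 and 2_4 or 27HC replicates 1_2, 1_4, 2_1 and 2_5, where r was 0.48 to 0.58 and the adjusted permutation p 0.0531 to 0.115.

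**Figure D5:**
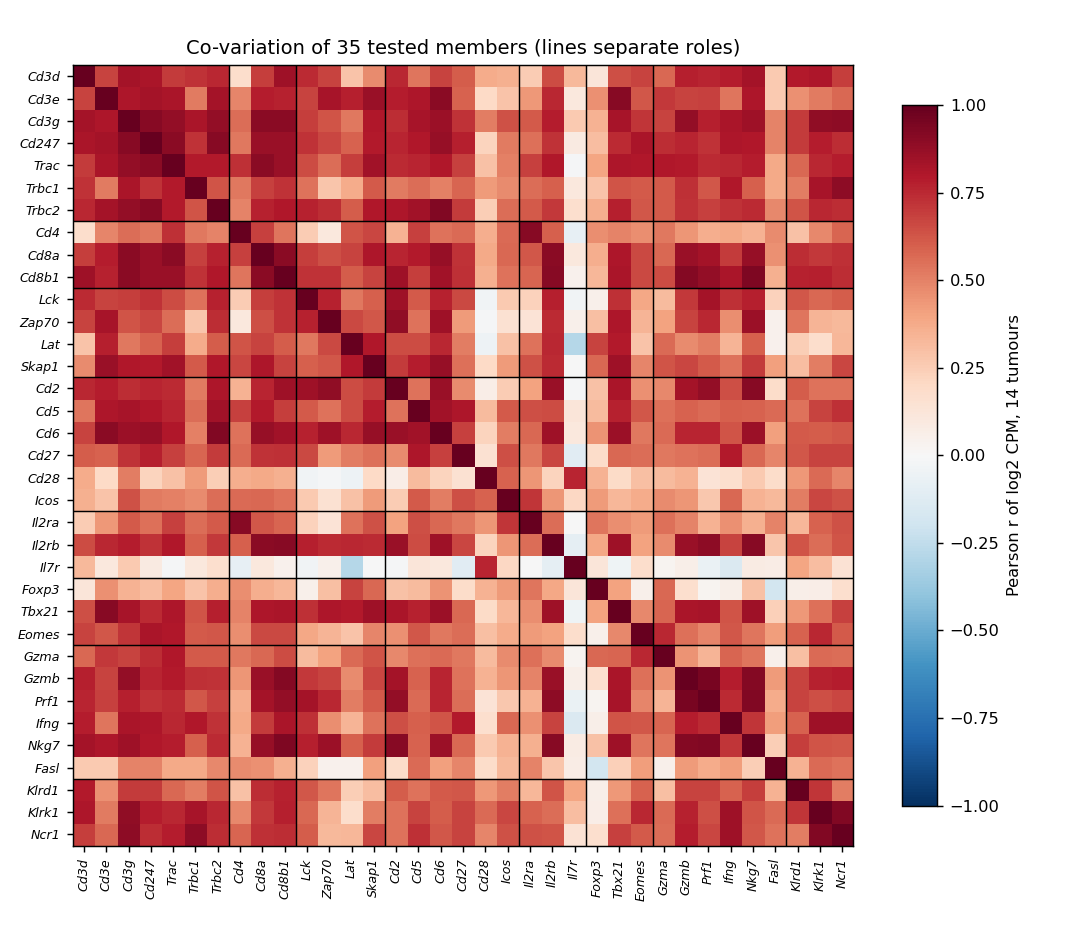
Pearson r of log2 CPM over 14 tumours between each pair of the 35 tested members (colour, from -1 in blue to 1 in red), ordered by role with lines between roles. Most pairs of receptor genes, Cd8a, Cd8b1, Gzmb, Prf1 and Nkg7 are red, while the rows of Il7r, Cd28, Foxp3 and Fasl are pale and Cd4 is paler with Cd3d (0.17) and Prf1 (0.37).

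The genes outside the set whose pattern was most like the mean z-score of the members over the 14 tumours included Tbc1d10c (r = 0.93), Cd7 (0.93), which encodes a surface glycoprotein of T and NK cells, Tcrg-C2 (0.91), a gamma receptor constant gene, Cst7 (0.90), Txnl4b (0.90), Clec12a (0.89), Serpina3g (0.89) and Fcgr4 (0.89). These values were ranked from all tested genes and describe these libraries. The ranking over all 19 tumours, which pools the low-GC libraries with the others, also placed Tbc1d10c and Cd7 among its first 10, with Il2rg, the common cytokine receptor chain, Rinl, Il27ra, Glyr1, Gimap1 and Lax1.

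Other genes of the same pathways were read from lists, in none of which a gene passed edgeR's test. Of 20 further receptor signalling genes 15 had a log2 fold change below 0, with a median of -0.04, and over 14 tumours 13 of 20 did, with a median of -0.21. Among those of smallest unadjusted p were the kinase gene Fyn at -0.14 (SE 0.10) and the adaptor gene Lcp2 at -0.29 (SE 0.29). Of 16 further NK and cytotoxic genes 14 lay below 0, with a median of -0.19, and over 14 tumours 15 of 15 did, with a median of -0.46. The granzyme gene Gzmd averaged 2.67 ± 1.59 CPM with 27HC (SD, n = 10) and 5.14 ± 3.99 CPM with DMSO (SD, n = 9), and its log2 fold change was -0.94 (SE 0.47, edgeR adjusted p = 1.00). Gzme, a near copy, had -0.64 (SE 0.42), and the separate levels of these copies are uncertain. Cst7, encoding cystatin F, had -0.27 (SE 0.18). Of 15 helper and regulatory genes 11 were tested and 3 lay below 0, with a median of 0.10, and over 14 tumours 4 of 11 did, with a median of 0.08. Those tested included Bcl6 at 0.29 (SE 0.15) and Tnfrsf4, encoding OX40, at 0.14 (SE 0.20). Of the gamma delta T cell genes 3 of 6 were tested and 1 lay below 0, and over 14 tumours 1 of 2 did.

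Markers of the other cells of a tumour were set beside these values. Of 8 macrophage markers 7 had a log2 fold change below 0, with a median of -0.17, and their summed level was 1063 to 1899 CPM in 27HC tumours and 1193 to 2137 CPM in DMSO tumours. Of 8 B cell markers 3 lay below 0, with a median of 0.06 and sums of 8.07 to 36.6 CPM with 27HC and 10.1 to 29.6 CPM with DMSO. All 4 tested lymph node stroma markers and all 7 skeletal muscle markers lay above 0, with medians of 0.36 and 1.24. The stroma markers summed to 2.72 to 81.7 CPM with 27HC and 2.30 to 32.5 CPM with DMSO. The muscle markers summed to 2.44 to 2865 CPM with 27HC and 2.92 to 1179 CPM with DMSO. The muscle median was -0.94 without the low-GC libraries, that of lymph node stroma 0.29. Over 14 tumours 7 of 8 macrophage markers lay below 0, with a median of -0.23, and 3 of 7 B cell markers, with a median of 0.06. Of 5 tested neutrophil markers 2 lay below 0 over 19 and over 14 tumours, with medians of 0.61 and 0.30. Of 7 dendritic cell markers 4 lay below 0 over 19 tumours and 6 over 14, with medians of -0.05 and -0.15. Of 6 mast cell and basophil markers 5 lay below 0 over 19 tumours and 4 over 14, with medians of -0.23 and -0.11. The epithelial markers turned, with 3 of 5 below 0 and a median of -0.04 over 19 tumours and 1 of 5 and a median of 0.54 over 14. No list had a gene at 0 in every tumour. The part of these cells in the fold changes of the members was not tested.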

How the data were processed

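Poly(A) RNA of 19 tumours frozen on dry ice was extracted with Trizol, made into stranded libraries and sequenced from both ends on a HiSeq instrument, per the labels' protocols. The deposited table holds expected counts per gene, which are estimated and fractional. Per the submitters' processing notes, kallisto 0.44.0, edgeR, limma and GRCm38 were used, with no role stated, so the step from transcripts to genes is not given in the sources used here. Symbols were found for 26290 of 26796 identifiers, and GENCODE on GRCm38 gave coordinates and transcript sequences for GC content.

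Expected counts were rounded and fitted over all genes with edgeR 4.0.16 (R 4.3.3) by the quasi-likelihood test with TMM and filterByExpr. Benjamini-Hochberg adjustment ran over all 15629 tested genes, with a threshold of 0.05. CPM uses TMM library sizes. Correlations use log2 CPM (prior count 2) with 100000 resamples, ratios a pseudocount of 0.5 CPM, and tests are two-sided (scipy 1.17.1). The pooling rule for correlations allowed no r across separate clusters. The 5 low-GC libraries, taken as a cluster by library GC content alone, were left out of each printed r between members or with them. Alternatives were RLE size factors, other filters, limma-voom 3.58.1, DESeq2 1.42.0, the title number as a replicate block, each first number alone and each tumour left out. A GC correction (loess, span 0.3), alone and with the block, and the ratios without the low-GC libraries were added after seeing the data. Within a group no library repeated another, the lowest chi-square per degree of freedom being 42.1. The fit was tested on simulated counts.

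Values per group were given for Cd3e, Cd4, Cd8a, Foxp3, Prf1, Gzmb, Ncr1, Ifng and the 3 members of smallest p, with the members of largest fold change in each direction, the 10 most alike genes, and up to 3 genes of smallest p per other list. Some genes that this rule takes are not reported here. Klrk1, Eomes and further members were picked for naming once values were known. The members and lists were chosen with earlier results of these data known.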

Additional observations from a re-analysis of the deposited data

Results flagged for a closer look

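Dixon's criterion at the 95% level singled out values far from the rest of their group. It takes the gap between the highest or lowest tumour and its nearest neighbour as a share of the range of the group. Chance flags about 1 group in 20 where values are normally distributed and groups independent. Of 86 groups tested, 12 stood out. These groups share the same 19 tumours and many members co-vary, so that rate is no yardstick for this count. DMSO replicate 2_4 was far above the other DMSO tumours for Cd8a (33.6 CPM, next 19.8), Cd8b1 (14.7 CPM, next 7.67), Trac (16.8 CPM, next 10.2) and Prf1 (38.1 CPM, next 19.4). DMSO replicate 1_3 was the highest for Zap70 (13.5 CPM, next 8.32) and had by far the lowest log2 ratio of Cd4 over Cd3e (-0.80, next 0.78). DMSO replicate 1_2 stood out for Lat (8.59 CPM, next 5.32) and DMSO replicate 2_3, a low-GC library, for Foxp3 (13.7 CPM, next 8.16). Among 27HC tumours, replicate 2_4 was highest for Tbx21 (6.74 CPM, next 4.16), and replicate 1_2 for the log2 ratio of Prf1 over Cd3e (2.08, next 0.92). 27HC replicate 1_3, a low-GC library, was highest for Eomes (6.29 CPM, next 3.21) and Gzmk (0.109 CPM, next 0.0340, a level of few counts).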

How the results depend on the processing

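No alternative called a member, and edgeR and limma-voom called 0 genes under each setting, while DESeq2 called 2 genes that are no members (smallest adjusted p 0.0104). The median of the members stayed below 0 under all 32 alternatives. The title numbers did not pair the tumours: the correlation between same-numbered tumours of the 2 groups ran from -0.43 to 0.78 over 9 pairs. With the title number as a replicate block the median was -0.23, with 32 of 35 members below 0 and 1 member, Prf1, at an unadjusted p under 0.05 (0.0494, adjusted p = 1 in edgeR's test), against 229 of 15629 genes at that level and 7423 below 0, and with block and GC correction -0.22. Of 1116 fold changes of single members under alternatives, 1051 kept their direction and 65 did not, and the cause was not tested. The direction turned with limma-voom for Cd3d (-0.0071), Foxp3 (-0.0083), Klrd1 (-0.070) and Fasl (-0.28); with the replicate block for Foxp3 (-0.0050), Klrd1 (-0.00029) and Fasl (-0.38); with block and GC correction for Foxp3 (-0.016), Klrd1 (-0.10) and Fasl (-0.35); and with GC correction alone for Klrd1 (-0.15) and Fasl (-0.045). Without the low-GC libraries it turned for Cd3d (-0.25), Cd28 (-0.055), Klrd1 (-0.40), Fasl (-0.41) and the ratio of Cd8a to Cd4 (-0.16). In tumours of first number 1 alone it turned for Icos (0.075), Trbc1 (0.25), Foxp3 (-0.030), Eomes (0.17), Klrk1 (0.055), Ncr1 (0.35) and Fasl (-0.13), and of number 2 alone for Cd3d (-0.33), Cd3e (0.11), Cd6 (0.021), Lck (0.013), Zap70 (0.23), Lat (0.21), Il7r (-0.073), Tbx21 (0.22) and Klrd1 (-0.43). Leaving out 1 tumour gave fold changes on both sides of 0 for Cd28 (-0.18 to 0.36), Cd3d (-0.22 to 0.22), Cd8a (-0.39 to 0.077), Cd8b1 (-0.35 to 0.023), Fasl (-0.26 to 0.26), Foxp3 (-0.10 to 0.21), Icos (-0.55 to 0.18), Il2ra (-0.41 to 0.079), Il2rb (-0.21 to 0.043), Il7r (-0.0028 to 0.57), Klrd1 (-0.37 to 0.50), Klrk1 (-0.61 to 0.12), Lat (-0.21 to 0.064), Ncr1 (-0.91 to 0.067) and Trbc1 (-0.41 to 0.036). It likewise moved the ratios of Cd8a to Cd3e (-0.16 to 0.049), Cd8a to Cd4 (-0.018 to 0.19) and Ncr1 to Cd3e (-0.34 to 0.039). When 1 tumour was left out the r of pairs ranged as follows, and each of these pairs passed or missed the threshold in turn: Cd3e and Cd4 (0.33 to 0.83), Cd3e and Foxp3 (0.25 to 0.57), Cd3e and Ncr1 (0.48 to 0.67), Cd3e and Prf1 (0.62 to 0.85), Cd4 and Foxp3 (0.16 to 0.59), Ncr1 and Gzma (0.42 to 0.85) and Tbx21 and Ifng (0.53 to 0.76). With a prior count of 0.5 Cd3e and Ncr1 no longer passed (r = 0.56, adjusted permutation p = 0.0543), and with 5 Ncr1 and Gzma did (r = 0.63, adjusted permutation p = 0.0320). Gzma, Ncr1, Gzmk and Sh2d1a had libraries with under 3 expected counts, where depth limits what can be seen.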
